A study of Mus musculus with 10 samples.

Results

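Hk1, Hk2, Hk3, Pfkl, Pfkp, Aldoa, Pklr, Pkm and Ldha encode glycolytic isoenzymes, and their transcripts were followed across 10 mouse livers. The genes were taken by symbol from the table of gene counts, and the set was chosen with earlier results of these data known. All 9 were found among the 55291 genes of the table, and all 9 passed the filter on low counts, which kept 17015 genes.

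Glycolysis breaks glucose down to pyruvate, and several of its steps can be run by alternative enzymes encoded by separate genes. The adult hepatocyte is known for its own forms of some of these enzymes, among them the liver phosphofructokinase (Pfkl) and the liver pyruvate kinase (Pklr). Proliferating, immune and stromal cells mostly use other forms, among them Hk1, Hk2, Hk3, Pfkp, Aldoa and Pkm, and Ldha turns pyruvate into lactate in most of these cells.

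The livers came from female mice aged 16 to 20 weeks that carried a Cas9 gene kept silent by a stop cassette until Cre removes it. An adeno-associated virus (AAV8) brought a guide RNA, either against Bap1 (sgBap1) or a non-targeting control (NTC), together with Cre under the thyroid hormone-binding globulin promoter, which is active in hepatocytes. Both genotypes therefore carried virus, Cre and active Cas9, and any edit was limited to transduced hepatocytes, while RNA was taken from tissue of the right lobe with all its cell types. After 10 days the mice received carbon tetrachloride (CCl4, a solvent that injures the hepatocytes around central veins), 1 part in 9 parts of olive oil at 10 µL per g of body weight, or olive oil alone (Veh), and livers were taken 48 h later. Each vehicle group held 2 livers and each CCl4 group held 3. The labels number the replicates without naming the mice, so the p-values below measure the spread between these samples.

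Library totals ran from 3.30e+07 to 5.22e+07 estimated counts, and levels are given in CPM, the usual counts-per-million unit, after TMM scaling. Bap1 itself, which encodes a deubiquitinase, stood at 34.8 and 34.8 CPM in NTC-Veh, at 17.5 and 19.5 in sgBap1-Veh, at 30.1, 31.5 and 29.5 in NTC-CCl4, and at 16.99, 21.8 and 19.1 in sgBap1-CCl4. It was lower in every sgBap1 liver than in any NTC liver, by 0.91 on the log2 scale with vehicle (edgeR adjusted p = 0.0208) and by 0.65 with CCl4 (adjusted p = 0.0295). The vehicle call was lost without any 1 of the 4 vehicle livers (adjusted p up to 0.12), and the CCl4 call without either NTC-Veh liver, any NTC-CCl4 liver or sgBap1-CCl4 replicate 1 (adjusted p up to 0.147). The labelled tissue carried its markers: the summed level of 8 hepatocyte genes was 67257 to 163383 CPM. A single library stood apart, since sgBap1-CCl4 replicate 2 held the adipocyte genes Adipoq at 36.4 CPM and Plin1 at 34.5 CPM, against at most 0.0425 and 0.0188 CPM in the other 9 livers. The fold changes of the 9 genes that include it are therefore also given without it, while group means, shares and correlations include all 10 livers.

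The genes lie on 6 chromosomes of GRCm38, listed here in order of their enzymatic step. Hk1 lies on the minus strand at chr10:62268855-62379908, Hk2 on the minus strand at chr6:82725025-82774454 and Hk3 on the minus strand at chr13:55005985-55021385. Pfkl runs on the minus strand at chr10:77986947-78010083 and Pfkp on the minus strand at chr13:6579768-6648777. Aldoa is split in the annotation into a pair of adjoining minus-strand entries at chr7:126795234-126800751 and chr7:126800790-126809108, and the sources used here do not say whether its row of counts covers both. Pklr lies on the plus strand at chr3:89136142-89146784, Pkm on the plus strand at chr9:59656368-59679375 and Ldha on the plus strand at chr7:46841475-46855627.

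Transcription factors that are known to act on glycolytic genes bind short motifs near the start of transcription. HIF1, the hypoxia factor, recognises ACGTG, MYC and USF recognise the E-box CACGTG, and ChREBP (encoded by Mlxipl) recognises the carbohydrate response element, a pair of E-box-like elements 5 bases apart. The letters ACGTG and CACGTG, and the carbohydrate response element in its full length, were searched on both strands from 250 bases before to 50 bases after each start site in RefSeq (GRCm38.p6). ACGTG was in 7 of the 15 starts of the members, covering 6 of the 9 genes, and in 19.6% of all 32851 promoters. A pair of Aldoa starts among the 7 has overlapping windows and counts the same site, at -126 from one start and -202 from the other. The percentage is per start site, so it gives no background for the count of genes. CACGTG, which also contains ACGTG, was in 1 member start and in 7.15% of all promoters, and the long motif was in 1 member start and in 0.0457% of all promoters, or 15 in number. The match in Pklr has the letters of the well-described carbohydrate response element of its liver promoter, and the other matches describe letters only. The stretches around them are shown for the only member that fell with CCl4 (Pklr) and for 3 that rose, each 5′ to 3′ on the strand of its gene, with the matching letters in capitals. They lie at chr3:89136423-89136502 (plus strand, 200 to 121 bases before the start), chr7:46845649-46845783 (plus strand, 155 to 21 bases before), chr6:82774485-82774534 (minus strand, 80 to 31 bases before) and chr7:126799355-126799404 (minus strand, 150 to 101 bases before), in that order. None overlaps an annotated exon. The Pklr and Ldha stretches lie within the span of their own gene, before an internal start, the Aldoa stretch lies within the span of Aldoa and of Fam57b on the other strand, and the Hk2 stretch lies in no gene.
Pklr: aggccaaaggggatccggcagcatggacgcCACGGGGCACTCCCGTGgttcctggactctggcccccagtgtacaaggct
Ldha: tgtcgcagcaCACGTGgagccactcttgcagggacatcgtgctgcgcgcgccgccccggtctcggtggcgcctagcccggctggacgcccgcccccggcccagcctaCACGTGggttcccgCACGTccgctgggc
Hk2: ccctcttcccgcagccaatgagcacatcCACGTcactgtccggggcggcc
Aldoa: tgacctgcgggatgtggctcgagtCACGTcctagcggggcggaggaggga

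CCl4 changed nearly all of the 9 genes in both genotypes, and Pklr moved against the rest. In NTC livers 7 rose, Pklr fell and Pfkl did not pass the test, and in sgBap1 livers 8 rose and Pklr fell. Over all tested genes, 53.9% were called with CCl4 in NTC livers (27.4% higher and 26.6% lower) and 57% in sgBap1 livers (29% higher and 28% lower). Scaled by library size alone, which moves the all-gene median of the log2 fold change from 0.03 to 0.50 in NTC livers and from 0.04 to 0.52 in sgBap1 livers, 8500 genes rose and 2061 fell in NTC livers and 8614 rose and 2388 fell in sgBap1 livers. All 9 were then called in both genotypes, in the same directions. The median log2 fold change of the 9 genes was 1.89 in NTC livers and 1.26 in sgBap1 livers, beside 0.03 and 0.04 over all tested genes. Without sgBap1-CCl4 replicate 2 all 9 were called in both genotypes, again with Pklr alone falling, and the rises in sgBap1 livers were 1.20 for Hk1, 0.73 for Hk3, 0.54 for Pfkl, 1.42 for Pfkp, 1.12 for Aldoa and 1.23 for Ldha on the log2 scale. Every CCl4-treated liver lay outside the range of the vehicle livers of its genotype for all 9 genes (8 above and Pklr below), as did 71.7% of all genes in NTC livers (36.7% above and 35% below) and 72.2% in sgBap1 livers (37.3% above and 34.9% below). In whole-tissue RNA, fewer cells of a type and less RNA per cell cannot be told apart. The RNA of cell type markers moved at the same time. The sum of the 8 hepatocyte markers was 131822 to 163383 CPM in NTC-Veh and 73473 to 84062 CPM in NTC-CCl4. That of 9 myeloid markers was 165 to 225 CPM and 725 to 919 CPM in the same groups. The part of these shifts in the results below was not tested.

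**Figure D1:**
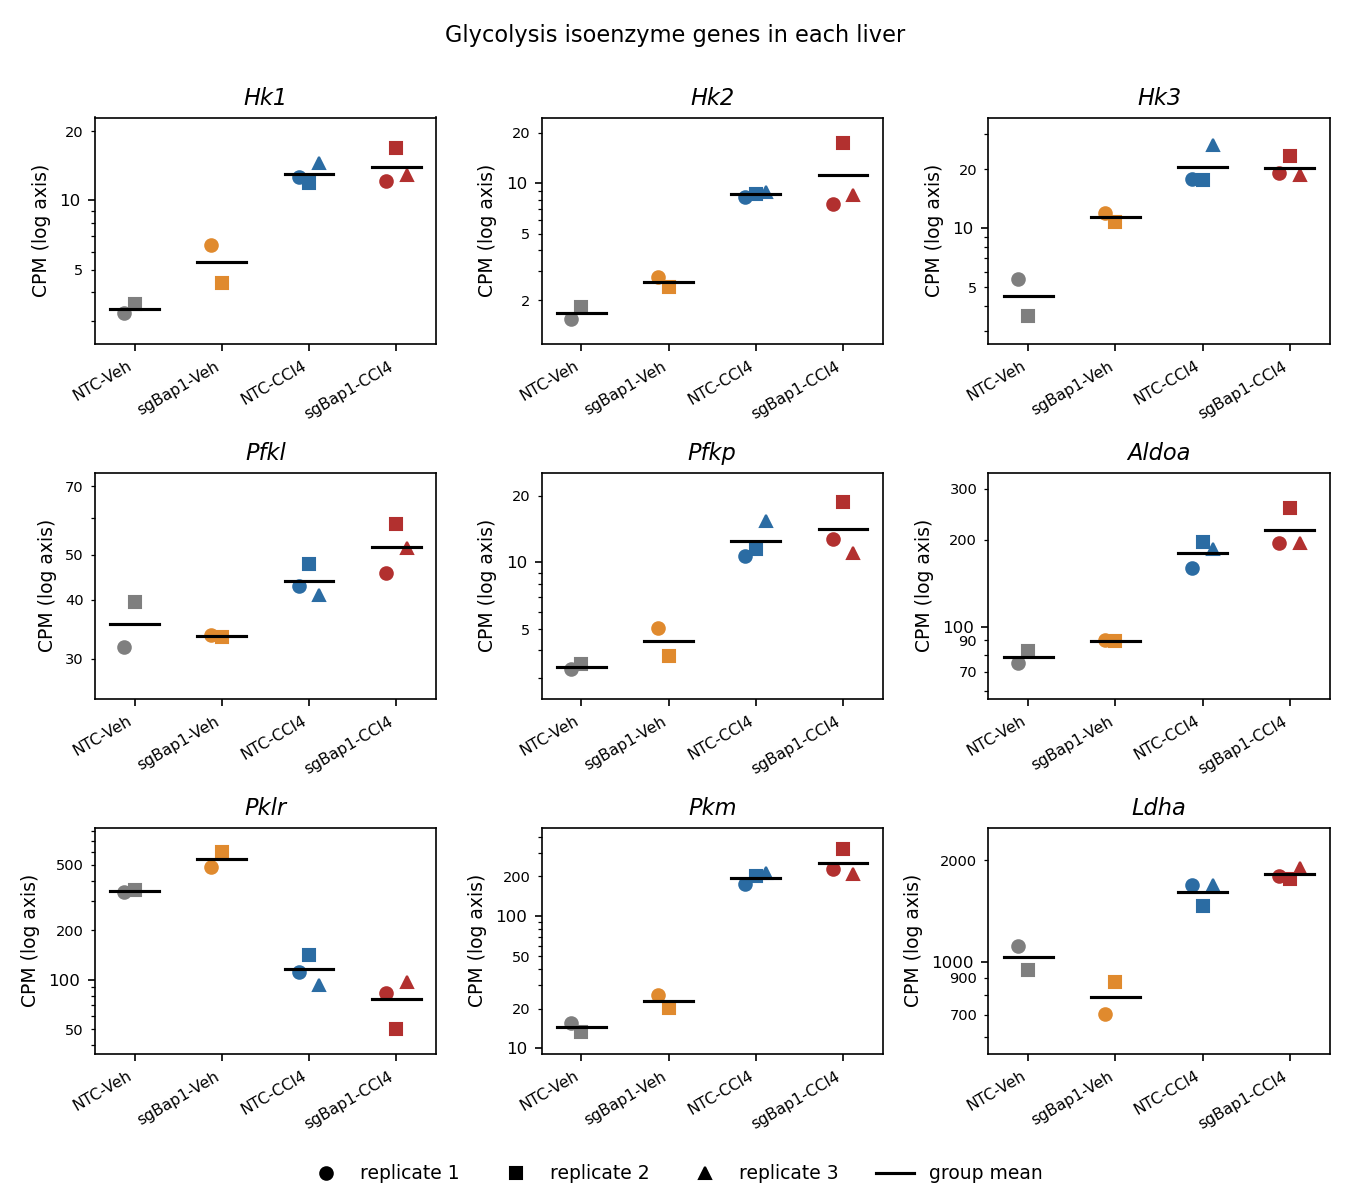
CPM (log axis, a separate scale per gene) of the 9 genes in each of the 10 livers by group, with the group mean as a bar and the replicate number as the symbol. The CCl4 groups sit above both vehicle groups in every panel but that of Pklr, where they sit below, and replicate 2 of sgBap1-CCl4 is the highest of its group in every panel but those of Pklr and Ldha.

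Hexokinases carry out the entry step, the phosphorylation of glucose. Hk1, the housekeeping form bound to mitochondria, was at 3.24 and 3.55 CPM in NTC-Veh, at 6.43 and 4.38 in sgBap1-Veh, at 12.7, 11.9 and 14.6 in NTC-CCl4, and at 12.2, 16.9 and 12.9 in sgBap1-CCl4. It rose with CCl4 by 1.94 on the log2 scale (SE 0.21, adjusted p = 3.09e-05) in NTC livers and by 1.36 (SE 0.20, adjusted p = 0.000224) in sgBap1 livers. The 6 CCl4 livers lay above all 4 vehicle livers, and the genotypes overlapped within CCl4.

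Hk2, the insulin- and hypoxia-responsive form of muscle, fat and tumours, started lowest, at 1.55 and 1.83 CPM in NTC-Veh and 2.75 and 2.40 in sgBap1-Veh. It reached 8.29, 8.62 and 8.85 CPM in NTC-CCl4, and 7.56, 17.5 and 8.46 in sgBap1-CCl4. The rise was 5.07-fold in NTC livers (log2 2.34, SE 0.37, adjusted p = 0.000501) and 4.33-fold in sgBap1 livers (log2 2.11, SE 0.36, adjusted p = 0.000699). The 17.5 CPM came from the library with adipocyte genes, and without that library the sgBap1 rise was 1.63 on the log2 scale (adjusted p = 2.23e-05).

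Hk3, the form of myeloid and other blood cells, was higher in both sgBap1-Veh livers than in both NTC-Veh livers, as Hk1 and Hk2 were. It stood at 5.50 and 3.55 CPM in NTC-Veh, at 11.9 and 10.8 in sgBap1-Veh, at 17.8, 17.5 and 26.5 in NTC-CCl4, and at 19.1, 23.3 and 18.6 in sgBap1-CCl4. It rose with CCl4 by 2.18 on the log2 scale (SE 0.24, adjusted p = 4.97e-05) in NTC livers and by 0.84 (SE 0.22, adjusted p = 0.00942) in sgBap1 livers. Without sgBap1-Veh replicate 2 the rise in sgBap1 livers was 0.77 and missed the threshold (adjusted p = 0.0701).

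Hkdc1, a weakly expressed hexokinase-like gene outside the 9, stayed under 1 CPM in all 10 livers, although it was called higher with CCl4 (1.49, adjusted p = 0.017, and 1.59, adjusted p = 0.0147). That call was lost when any vehicle liver of the same genotype was left out.

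Phosphofructokinase commits sugar to glycolysis, and its 3 genes did not move together. Pfkl, the liver form, was at 31.7 and 39.5 CPM in NTC-Veh, at 33.7 and 33.4 in sgBap1-Veh, at 42.9, 47.8 and 41.0 in NTC-CCl4, and at 45.8, 58.1 and 51.7 in sgBap1-CCl4. The groups did not overlap, but the change in NTC livers was 0.30 on the log2 scale (SE 0.13) and missed the threshold (adjusted p = 0.0645), while that in sgBap1 livers was 0.63 (SE 0.13, adjusted p = 0.00183). The NTC value passed without sgBap1-CCl4 replicate 2 (0.30, adjusted p = 0.0428) and without NTC-Veh replicate 2 (0.47, adjusted p = 0.0296).

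Pfkp, the platelet form found in many proliferating cells, was at 3.29 and 3.46 CPM in NTC-Veh and 5.06 and 3.78 in sgBap1-Veh. It stood at 10.7, 11.5 and 15.4 CPM in NTC-CCl4 and 12.8, 18.7 and 11.0 in sgBap1-CCl4. The rise was 3.70-fold in NTC livers (log2 1.89, SE 0.26, adjusted p = 0.000208) and 3.18-fold in sgBap1 livers (log2 1.67, SE 0.26, adjusted p = 0.000376). The overlapping gene Pitrm1 on the other strand shares 5.1% of Pfkp's 50-base stretches. Pitrm1 held 1011 to 1757 counts per library, beside 101 to 1093 for Pfkp. How far this bears on the level, share and ratio of Pfkp was not tested. Pfkm, the muscle form and partner of both, fell by 0.52 on the log2 scale in NTC livers (adjusted p = 0.00695), whereas the sgBap1 value was -0.33 (adjusted p = 0.0579). Without NTC-Veh replicate 2 the Pfkm value in NTC livers was -0.33 and missed the threshold (adjusted p = 0.107), and by library size alone it was -0.06 (adjusted p = 0.763).

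To compare levels between genes, counts were divided by the exon length of each gene and expressed as shares of an enzymatic step (mean ± SD over the 2 vehicle livers or the 3 CCl4 livers of a group). Per kilobase, the phosphofructokinase step was shared between Pfkl (50.4% ± 0.249) and Pfkm (47.2% ± 0.550) in NTC-Veh, and Pfkl held 59.8% ± 1.51 in NTC-CCl4 and 65.7% ± 1.49 in sgBap1-CCl4. The share of Pfkp was 2.41% ± 0.301 in NTC-Veh, 3.61% ± 0.497 in sgBap1-Veh, 8.55% ± 2.01 in NTC-CCl4 and 8.88% ± 1.89 in sgBap1-CCl4. Pfkl held the largest share in every liver, with vehicle as with CCl4. The makeup depends on the length used: in NTC-Veh Pfkl and Pfkm held 60.7% and 36.8% with the longest transcript of each gene, and with no length Pfkl, Pfkm and Pfkp held 63.9%, 29.95% and 6.12%. In NTC-CCl4 Pfkl held 68.2% with the longest transcript but 64.5% ± 3.13 with no length, close to its share in NTC-Veh. With no length it held 66.6% in sgBap1-Veh and 68.3% in sgBap1-CCl4.

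Aldolase splits fructose bisphosphate. Aldoa, the muscle and general form, was at 75.1 and 82.9 CPM in NTC-Veh, at 90.1 and 89.3 in sgBap1-Veh, at 159.6, 196 and 186 in NTC-CCl4, and at 195, 257 and 195 in sgBap1-CCl4. It rose by 1.19 (SE 0.14, adjusted p = 6.84e-05) and 1.26 (SE 0.14, adjusted p = 4.47e-05) on the log2 scale in NTC and sgBap1 livers, with no overlap between CCl4 and vehicle.

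Aldoc, the brain aldolase, moved the other way. It fell by 2.16 (adjusted p = 0.000645) in NTC livers and fell by 2.19 (adjusted p = 0.000802) in sgBap1 livers on the log2 scale.

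Pyruvate kinase, the last step, held both the largest rise and the only fall among the 9 genes. Pkm, whose splice forms M1 and M2 cannot be separated in gene counts, was at 15.5 and 13.3 CPM in NTC-Veh, at 25.5 and 20.1 in sgBap1-Veh, at 176, 201 and 213 in NTC-CCl4, and at 229.8, 321 and 209 in sgBap1-CCl4. The lowest CCl4 liver was thus several times above the highest vehicle liver. Pkm rose 13.6-fold in NTC livers (log2 3.77, SE 0.22, adjusted p = 1.57e-06) and 11.1-fold in sgBap1 livers (log2 3.47, SE 0.21, adjusted p = 1.63e-06), and by 3.27 on the log2 scale in sgBap1 livers without replicate 2. In the annotation, 25.8% of the 50-base stretches of Pkm are shared with 8 other genes, most with the overlapping model Gm49759. That model held 41 to 634 counts per library beside 480 to 18725 for Pkm.

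Pklr, the liver form, whose promoter carries the carbohydrate response element letters shown above, was at 344 and 349 CPM in NTC-Veh, at 485 and 596 in sgBap1-Veh, at 111, 142 and 93.2 in NTC-CCl4, and at 83.4, 49.97 and 96.4 in sgBap1-CCl4. The 4 vehicle livers lay above all 6 CCl4 livers, and the lowest was the sgBap1-CCl4 library with adipocyte genes. Pklr fell by 1.59 on the log2 scale (SE 0.26, adjusted p = 0.000595) in NTC livers and fell by 2.82 (SE 0.26, adjusted p = 1.83e-05) in sgBap1 livers, where it fell by 2.59 without that library. The overlapping gene Hcn3 on the other strand shares 20.5% of Pklr's 50-base stretches and held 5 to 64 counts per library, beside 2919 to 18034 for Pklr.

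The makeup of the pyruvate kinase step shifted accordingly. Per kilobase, Pkm made up 2.84% and 2.41% of the step in the NTC-Veh livers and 3.29% and 2.14% in the sgBap1-Veh livers. It made up 50.6%, 47.8% and 59.6% in NTC-CCl4, and 64.1%, 80.6% and 58.4% in sgBap1-CCl4. The group means of the Pklr share were 97.4% ± 0.301 in NTC-Veh, 97.3% ± 0.816 in sgBap1-Veh, 47.3% ± 6.15 in NTC-CCl4 and 32.3% ± 11.5 in sgBap1-CCl4. These shares depend on the length used: with the longest transcript of each gene the NTC-CCl4 mean of Pklr was 32.9%, and with no length it was 36.8%.

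**Figure D2:**
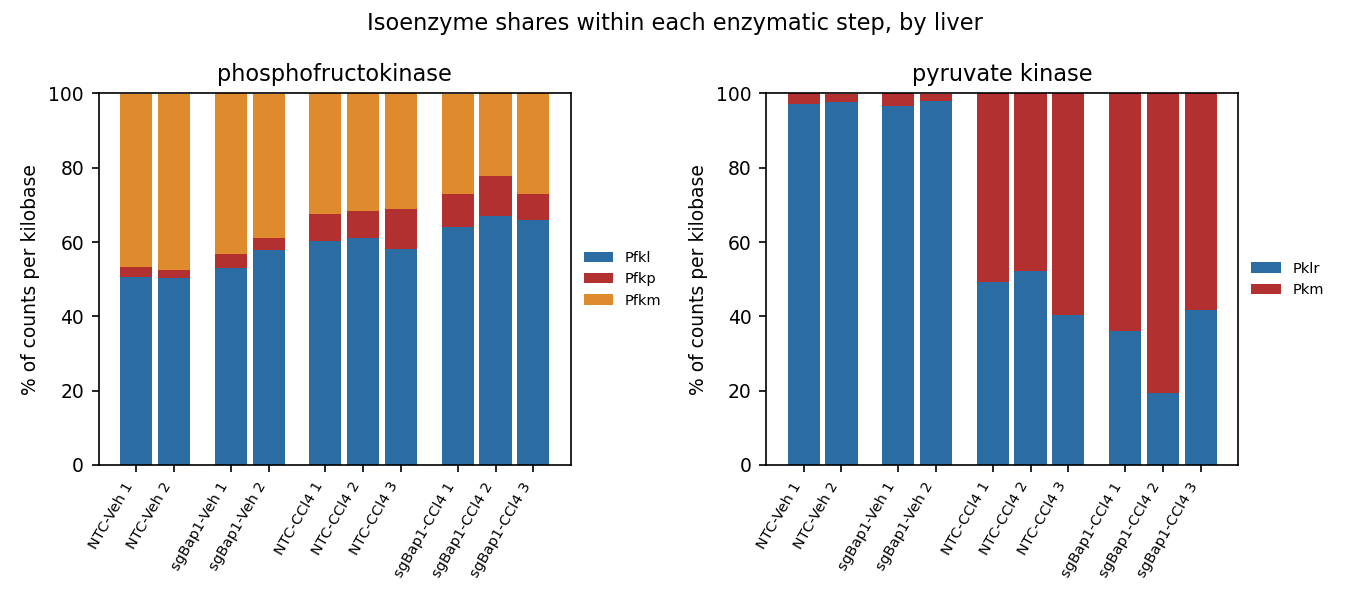
Share of each isoenzyme in the counts per kilobase of exon (percent, vertical axis) for the phosphofructokinase and pyruvate kinase steps, with 1 stacked bar per liver and the 10 livers in group order. The Pkm part of the pyruvate kinase bars runs from 2.14% to 3.29% in the 4 vehicle livers and from 47.8% to 80.6% in the 6 CCl4 livers.

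Lactate dehydrogenase regenerates the NAD that glycolysis uses. Ldha, the most abundant of the 9 genes per kilobase in every group, was at 1121 and 947 CPM in NTC-Veh, at 705 and 877 in sgBap1-Veh, at 1689.5, 1469 and 1697 in NTC-CCl4, and at 1802, 1760.4 and 1906 in sgBap1-CCl4. Both sgBap1-Veh livers lay below both NTC-Veh livers, and all 6 CCl4 livers lay above the 4 vehicle livers. Ldha rose by 0.65 (SE 0.15, adjusted p = 0.00405) in NTC livers and by 1.20 (SE 0.15, adjusted p = 8.42e-05) in sgBap1 livers on the log2 scale. In the annotation, 9.26% of the 50-base stretches of Ldha are shared with 328 other genes, most with Gm5452. That gene held 53 to 219 counts per library beside 23442 to 105823 for Ldha.

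Ldhb, the heart form, was between 1.64 and 2.80 CPM in 9 livers and at 15.7 CPM in sgBap1-CCl4 replicate 2. Its log2 change with CCl4 was -0.36 (adjusted p = 0.78) in NTC livers and 1.73 (adjusted p = 0.163) in sgBap1 livers, and -0.02 in the latter without that library. Ldhc, the testis form, was at 0 in all 10 livers. Ldha held 99.5% ± 0.164 of the step per kilobase in NTC-Veh and 99.2% ± 0.940 in sgBap1-CCl4, so its own level set that of the step.

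Set in order per kilobase of exon, the 9 genes changed places with CCl4. In NTC-Veh the order was Ldha at 312 ± 37.1 CPM per kilobase (SD, n = 2), Pklr at 107 ± 1.13, Aldoa at 21.3 ± 1.48, Pfkl at 5.33 ± 0.829, Pkm at 2.88 ± 0.310 and Hk3 at 1.23 ± 0.375, followed by Hk1, Hk2 and Pfkp between 0.252 and 0.398. In NTC-CCl4 Ldha led at 489 ± 39.2 (n = 3), and Aldoa at 48.6 ± 5.05, Pkm at 39.3 ± 3.77 and Pklr at 35.6 ± 7.64 followed. The exon lengths come from an older annotation release than that of the counts, and the length of Aldoa joins both of its entries, so its place in this order is uncertain. The ranges of Pkm and Pklr overlapped there (35.1 to 42.5 and 28.8 to 43.9), as did those of Pfkl at 6.58 ± 0.531 and Hk3 at 5.59 ± 1.39. In sgBap1-CCl4 Pkm stood at 50.6 ± 11.8, beside 58.1 ± 9.61 for Aldoa, with overlapping livers, and Pklr at 23.7 ± 7.40 lay below both.

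Of 4 tested isoenzyme partners outside the 9 genes (Hkdc1, Pfkm, Aldoc and Ldhb), 1 rose and 2 fell in NTC livers, and 1 rose and 1 fell in sgBap1 livers. Their median log2 change was -0.44 and 0.63, the latter -0.16 without sgBap1-CCl4 replicate 2. Ratios of counts within a liver, which do not depend on the scaling between libraries, were set against exact two-sided permutation tests, with labels exchanged within genotype for the CCl4 effect and within treatment for the genotype effect, adjusted by Benjamini-Hochberg over the 6 tests (3 ratios and 2 effects). With CCl4, Pkm/Pklr rose by 5.85 on the log2 scale (5.38 in NTC and 6.32 in sgBap1 livers) and Pfkp/Pfkl by 1.296. Both reached p = 0.01, the smallest that 100 relabellings allow (adjusted p = 0.03 in the exact permutation test). Ldha/Ldhb changed by 0.62 (exact permutation p = 0.41), and by 1.13 without sgBap1-CCl4 replicate 2 (adjusted exact permutation p = 0.0333). With any 1 liver other than sgBap1-CCl4 replicate 2 left out, fewer relabellings remain and none of the 6 tests passed (adjusted exact permutation p of 0.05 or 0.075 for these 2 ratios).

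The comparison of sgBap1 with NTC livers under vehicle asks whether the guide alone moves these genes. None of the 9 passed edgeR's test, where 0.406% of all genes did, although 5 had an unadjusted p under 0.05 (12.3% of all genes). The 7 genes Hk1, Hk2, Hk3, Pfkp, Aldoa, Pkm and Pklr were higher in both sgBap1-Veh livers than in both NTC-Veh livers, Ldha was lower in both, and Pfkl overlapped. Over all genes, 40.9% showed no overlap, 21.7% being higher and 19.2% lower. The median log2 difference of the 9 was 0.61, beside 0.02 over all tested genes, and 0.36 without sgBap1-Veh replicate 1.

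Hk3 came nearest to the threshold, with a log2 difference of 1.33 (SE 0.26, 2.51-fold, edgeR adjusted p = 0.0602). DESeq2's Wald test, which called 548 genes in this comparison, called Hk3 alone of the 9 (1.34, adjusted p = 0.000113). Without sgBap1-CCl4 replicate 2, which enters through the shared estimate of the spread, edgeR gave Hk3 an adjusted p of 0.0497, and without NTC-CCl4 replicate 3 it gave 0.0408. The remaining log2 differences were 0.68 for Hk1 (adjusted p = 0.235), 0.67 for Pkm (adjusted p = 0.211), 0.64 for Pklr (adjusted p = 0.401), 0.61 for Hk2 (adjusted p = 0.643), 0.40 for Pfkp (adjusted p = 0.669) and 0.18 for Aldoa (adjusted p = 0.712). Ldha was at -0.39 (adjusted p = 0.358) and Pfkl at -0.09 (adjusted p = 0.88).

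Pklr and Pkm thus had positive differences of like size under vehicle. No genotype effect on the 3 ratios passed the test (adjusted exact permutation p from 0.333 to 0.517, with 0.0167 the smallest raw p that 120 relabellings allow), and the smallest raw p was that of Pkm/Pklr, at 0.167. That ratio differed by 0.50 on the log2 scale as the mean over both treatments, with 0.02 under vehicle and 0.97 under CCl4, and the mean was 0.26 without sgBap1-CCl4 replicate 2. Of the 4 tested isoenzyme partners none was called in either genotype comparison, with 2 under vehicle and 1 under CCl4 at an unadjusted p under 0.05. DESeq2 called none of them under vehicle and 1, lower, under CCl4.

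Myeloid markers moved with Hk3 under vehicle. Ptprc, the pan-leukocyte phosphatase CD45, was at 14.9 and 9.98 CPM in NTC-Veh and 26.2 and 25.3 in sgBap1-Veh (log2 1.05, adjusted p = 0.0418), and Csf1r, the macrophage growth factor receptor, was at 35.6 and 30.4 and at 80.8 and 56.5 CPM (1.06, adjusted p = 0.0487). These were 2 of the 9 myeloid markers called, 8 had an unadjusted p under 0.05, and DESeq2 called 8. By library size alone none was called (adjusted p = 0.051 for Ptprc and 0.0751 for Csf1r), and the replicate block (0.0891 and 0.115) and the fit of only the vehicle livers (0.155 and 0.156) ended both calls. With 1 liver left out, the Ptprc call was kept only without NTC-Veh replicate 1, NTC-CCl4 replicate 3 or sgBap1-CCl4 replicate 2 (adjusted p up to 0.171 otherwise), and the Csf1r call only without sgBap1-CCl4 replicate 2 (up to 0.266). The 9 together summed to 165 to 225 CPM in the NTC-Veh livers and to 328 to 439 CPM in the sgBap1-Veh livers, with no marker at 0 in any group. Such a difference was not particular to myeloid markers. The median log2 difference was 1.05 for the 9 myeloid, 0.94 for the 6 lymphocyte and 1.01 for the 6 proliferation markers. In each of the latter 2 lists 3 markers had an unadjusted edgeR p under 0.05 and none was called. Medians of the other tested marker lists ran from -0.20 (hepatocyte) to 0.44 (adipocyte). How much of the Hk3 difference goes with the number of leukocytes was not tested.

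**Figure D3:**
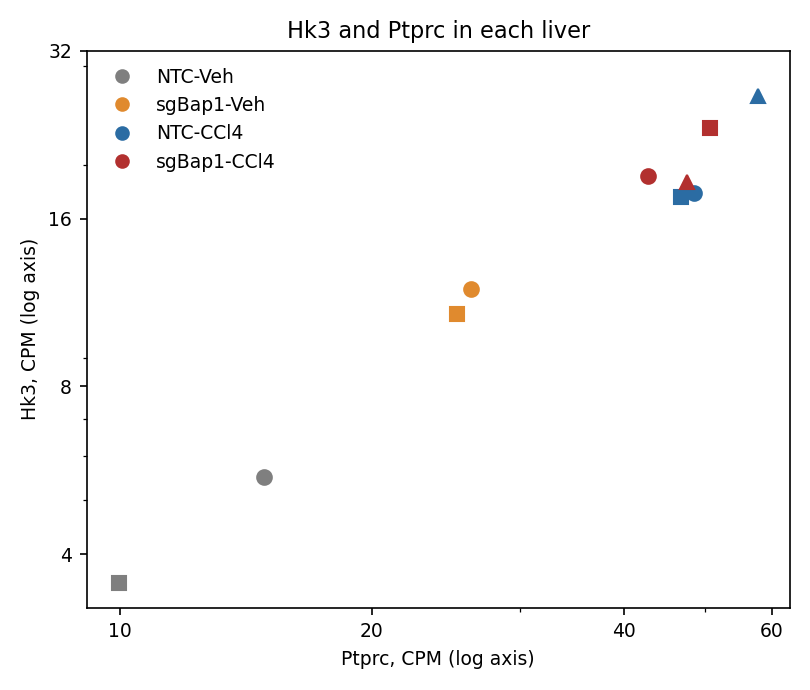
Hk3 against the leukocyte gene Ptprc, both in CPM on log axes, with 1 point per liver, colour for the group and shape for the replicate number (circle 1, square 2, triangle 3). The 2 NTC-Veh livers lie lowest on both axes, the 2 sgBap1-Veh livers lie between, at 10.8 to 11.9 CPM of Hk3, and the 6 CCl4 livers lie highest, at 17.5 to 26.5 CPM.

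Within CCl4, none of the 9 genes was called by edgeR (0.329% of all genes were) or by DESeq2, and 2 had an unadjusted p under 0.05 (14% of all genes). Only Ldha was separated, higher in all 3 sgBap1-CCl4 livers than in all 3 NTC-CCl4 livers, with a log2 difference of 0.17 (adjusted p = 0.59), while the other 8 overlapped. Over all genes, 20.3% showed no overlap, 10.1% being higher and 10.2% lower. The median of the 9 was 0.18, beside 0.00 over all genes, and -0.06 without sgBap1-CCl4 replicate 2.

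The largest value was that of Pklr, at -0.59 (SE 0.23, adjusted p = 0.296), which was -0.36 without that library. Pkm was at 0.37 (SE 0.16, adjusted p = 0.353), and at 0.16 without it. Hk2 was at 0.38 (adjusted p = 0.567), Aldoa at 0.26 (adjusted p = 0.384), Pfkl at 0.24 (adjusted p = 0.369), Pfkp at 0.18 (adjusted p = 0.738), Hk1 at 0.10 (adjusted p = 0.829) and Hk3 at -0.02 (adjusted p = 0.98). Without that library Hk1, Hk2 and Pfkp had negative values (-0.06, -0.10 and -0.07), Hk3 was at -0.13, and Ldha, Pfkl and Aldoa were at 0.20, 0.15 and 0.11.

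**Figure D4:**
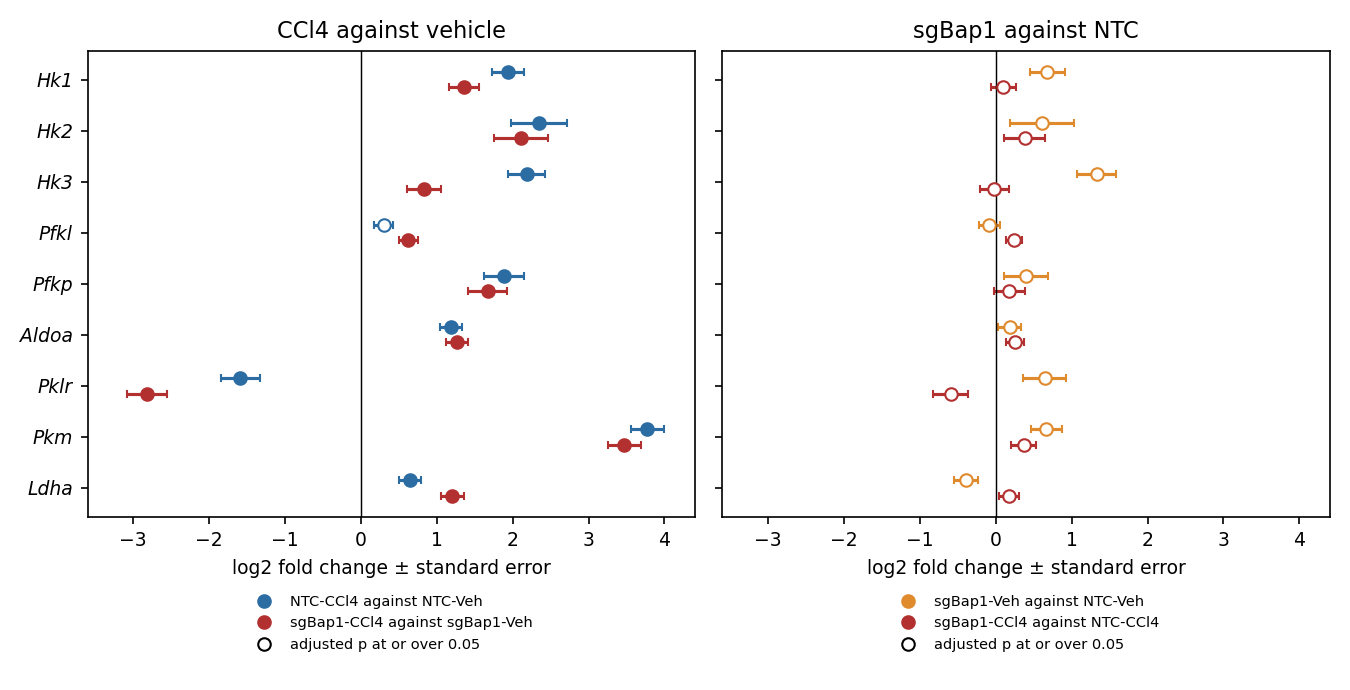
Log2 fold change ± standard error (horizontal axis) of the 9 genes for CCl4 against vehicle in each genotype (left) and for sgBap1 against NTC under each treatment (right), with open symbols where edgeR's adjusted p is at or over 0.05. On the left 17 of 18 symbols are filled, from -2.82 to 3.77, and on the right none is, with values from -0.59 to 1.33.

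The interaction, the difference between the CCl4 effects of the genotypes, was called for none of the 9 genes and for none of all 17015 by edgeR (smallest adjusted p 0.143 among the 9 and 0.0694 over all), with 3 of the 9 and 10.4% of all genes at an unadjusted p under 0.05. The CCl4 effect on Hk3 was smaller in sgBap1 livers by 1.35 on the log2 scale (interaction -1.35, SE 0.32, edgeR adjusted p = 0.143). That on Pklr was a deeper fall in sgBap1 livers (-1.23, SE 0.37, adjusted p = 0.246), and that on Ldha was a larger rise (0.56, SE 0.21, adjusted p = 0.372). DESeq2, which called 411 genes for the interaction, called Hk3 (-1.35, adjusted p = 0.00601) and Pklr (-1.24, adjusted p = 0.025). Without sgBap1-CCl4 replicate 2 edgeR gave -1.46 for Hk3 (adjusted p = 0.124) and -1.004 for Pklr (adjusted p = 0.146).

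The remaining interaction values were -0.58 for Hk1, -0.30 for Pkm, -0.23 for Hk2, -0.22 for Pfkp, 0.07 for Aldoa and 0.33 for Pfkl, with adjusted p values from 0.517 to 0.943. Without sgBap1-CCl4 replicate 2 they were -0.74 for Hk1, -0.51 for Pkm, -0.71 for Hk2, -0.47 for Pfkp, -0.0744 for Aldoa and 0.23 for Pfkl, and that of Ldha was 0.58. Hk3 and Pklr were both higher in the sgBap1-Veh than in the NTC-Veh livers, while the CCl4 livers of the genotypes overlapped. The log2 difference between genotypes was 1.33 under vehicle and -0.02 under CCl4 for Hk3. For Pklr it was 0.64 and -0.59, the latter -0.36 without sgBap1-CCl4 replicate 2. Of the 9 myeloid markers, 8 had an interaction with an unadjusted p under 0.05 and a median of -1.04, none was called by edgeR, and 6 were called by DESeq2, all negative.

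Across the 10 livers the levels of the 9 genes ran together with CCl4, and their likeness to other genes is given as a description, since all points share these 4 groups. Pearson's r of log2 CPM was 0.98 between Pkm and Hk1, 0.99 between Pkm and Aldoa, and -0.94 between Pkm and Pklr, and the lowest among the 8 that rose was 0.61, between Hk3 and Pfkl. Among 12027 genes averaging 100 counts or more, the closest to Hk3 were Ptprc, Il2rg (the common gamma chain of cytokine receptors) and Traf1 (a signalling adaptor), with r of 0.99 for each. Closest to Pkm were Arpc1b, a subunit of the actin-branching Arp2/3 complex, Clic1 and Pakap (each r = 1.00), and closest to Pklr were Fam136a, Stard5 and Khk, the fructose-phosphorylating ketohexokinase (each r = 0.99).

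The same measure placed Kcnk6, Ano6 and Slc8a1 nearest to Hk1, Oxct1, Trim35 and Pmepa1 nearest to Hk2, Gpx8, Numbl and Hmcn2 nearest to Pfkl, and Gab2, Nup188 and Piezo1 nearest to Pfkp. Nearest to Aldoa were Psph, Ccn4 and Havcr2, and nearest to Ldha were Rangap1, Ttpal and Pbx3. The r of these 27 pairs ran from 0.95 to 1.00, none of the 9 genes was among the 3 nearest of another, and by Spearman's rho only 4 of the 27 pairs stayed among the 3 nearest.

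The rest of the pathway shows where the 9 genes stand. Of 11 tested other glycolytic enzymes, 4 rose and 2 fell in NTC livers and 4 rose and 3 fell in sgBap1 livers, with a median log2 change of 0.07 and -0.12. Eno2, the neuronal enolase, rose by 3.74 (adjusted p = 0.000124) and 3.65 (adjusted p = 8.67e-05) on the log2 scale from at most 0.108 CPM in the vehicle livers. Gapdhs, the sperm form of Gapdh, fell by 2.44 and fell by 2.55. It went from at most 0.511 CPM in the vehicle livers to at most 0.085 CPM with CCl4, where 3 counts make 0.0511 to 0.0781 CPM. Eno3, the muscle enolase, fell by 0.55 and fell by 0.70. The Gapdhs calls were lost without NTC-Veh replicate 1 (-1.88, adjusted p = 0.136) and without sgBap1-Veh replicate 1 (-1.57, adjusted p = 0.165), in that order of genotypes, and those of Eno3 without NTC-Veh replicate 2, NTC-CCl4 replicate 3 or sgBap1-Veh replicate 2. Scaled by library size alone, 8 rose and 1 fell in NTC livers and 7 rose and 1 fell in sgBap1 livers.

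Regulators of glycolysis moved both ways, with 6 higher and 4 lower of 15 in NTC livers and 8 higher and 5 lower in sgBap1 livers (10 and 4 in both by library size alone, and 7 and 4 in NTC and 7 and 5 in sgBap1 livers without sgBap1-CCl4 replicate 2), and a median of 0.13 and 0.28. Mlxipl, which encodes the glucose-sensing factor ChREBP, fell by 1.97 (adjusted p = 7.46e-06) and fell by 2.62 (adjusted p = 1.77e-06). Gckr fell by 1.39 (adjusted p = 0.00023) and fell by 1.79 (adjusted p = 4.33e-05). Pfkfb4, a bifunctional enzyme that sets fructose 2,6-bisphosphate, rose by 1.95 and 1.75. The genotype comparisons called 2 of the 15. Srebf1, the lipogenic factor that insulin induces, was at 350.0 and 340.2 CPM in the NTC-Veh livers and at 627 and 665 CPM in the sgBap1-Veh livers (0.90, SE 0.16, adjusted p = 0.0487). Pfkfb2, another of the bifunctional enzymes, was at 22.8, 19.3 and 20.6 CPM in NTC-CCl4 and 34.3, 30.8 and 32.4 in sgBap1-CCl4 (0.64, SE 0.09, adjusted p = 0.0248). The Srebf1 call was kept only without NTC-CCl4 replicate 1 or sgBap1-CCl4 replicate 2 among the fits that left out 1 liver (adjusted p up to 0.246). That of Pfkfb2 was lost without any 1 of the NTC-CCl4 livers or sgBap1-CCl4 replicate 1 (adjusted p up to 0.092).

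Transporters of glucose and lactate showed 5 higher and 4 lower of 10 in either genotype (5 and 5 without sgBap1-CCl4 replicate 2), with a median of 0.21 and -0.02. Slc16a3, the lactate exporter MCT4, rose from at most 1.05 CPM in the vehicle livers to 7.06, 9.22 and 9.27 CPM in NTC-CCl4 and 12.9, 13.1 and 11.99 CPM in sgBap1-CCl4, by 4.74 and 3.84 on the log2 scale (both adjusted p = 9.88e-07). The weakly expressed Slc2a10 was at most 0.218 CPM in the vehicle livers and at most 1.20 CPM with CCl4. Slc2a2, the hepatocyte glucose transporter GLUT2, fell by 2.09 and fell by 3.12, and Slc2a10 rose by 1.92 and 2.94, the former lost without NTC-Veh replicate 2 (1.53, adjusted p = 0.0786).

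Gluconeogenesis, the hepatocyte pathway that runs opposite to glycolysis, had 2 higher and 5 lower of 8 in either genotype (3 and 5 in NTC and 3 and 3 in sgBap1 livers by library size alone), with a median of -1.17 and -0.79. G6pc, the glucose-6-phosphatase that releases glucose, fell by 2.58 and fell by 2.62, its transporter Slc37a4 fell by 2.37 and fell by 2.69, and Pck1, the cytosolic PEP carboxykinase, fell by 1.58 and fell by 0.88. The sgBap1 value of Pck1 missed the threshold without sgBap1-Veh replicate 1 (-0.68, adjusted p = 0.0894) and by library size alone (-0.42, adjusted p = 0.0737).

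The entry of pyruvate into mitochondria had 3 higher and 9 lower of 13 in either genotype (4 and 6, and 4 and 7, by library size alone), with a median of -0.73 and -0.94. The kinases that switch off pyruvate dehydrogenase did not move together: Pdk3 rose by 2.97 and 2.24, while Pdk2 fell by 2.50 and fell by 2.98 and Pdk1 fell by 2.33 and fell by 2.93, and all 6 changes were called. Pdk4, another of these kinases, had a group mean of 7.31 CPM in NTC-Veh and 26.0 CPM in NTC-CCl4. In sgBap1-Veh its mean was 4.93 CPM, and in sgBap1-CCl4 it was 51.5 CPM (27.8 to 86.6).

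**Figure D5:**
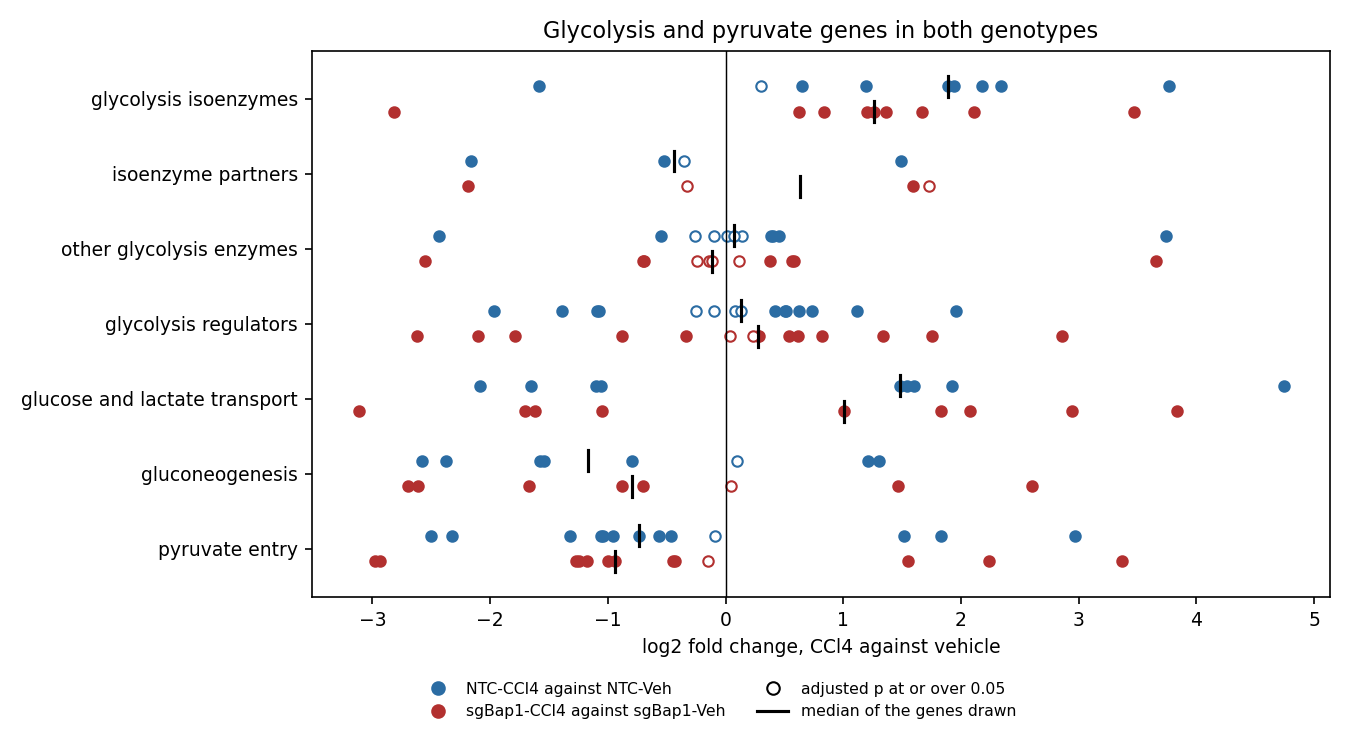
Log2 fold change with CCl4 against vehicle (horizontal axis) for each tested gene of 7 lists, NTC livers in blue and sgBap1 livers in red, open symbols where edgeR's adjusted p is at or over 0.05 and a bar at the median of the genes drawn. Slc2a4 is left out of the transport list because its 3 sgBap1-CCl4 values run from 0.128 to 7.21 CPM. The 9 isoenzyme genes lie to the right of 0 with a single exception, Pklr, while most gluconeogenesis and pyruvate entry genes lie to the left.

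Marker lists of other cells were called with CCl4 to differing extents. In NTC livers 7 of 8 hepatocyte markers fell, 8 of 9 myeloid markers, 4 of 5 tested neutrophil markers, 5 of 6 stellate and fibroblast markers, 2 of 5 endothelial, 2 of 5 cholangiocyte and 2 of 6 lymphocyte markers rose, and 6 of 6 proliferation markers rose. In sgBap1 livers 4 of 8 hepatocyte markers fell, 7 of 9 myeloid markers rose and 1 fell, 4 of 5 neutrophil, 4 of 6 stellate and fibroblast, 3 of 5 endothelial, 2 of 5 cholangiocyte and 6 of 6 proliferation markers rose, and 1 endothelial marker fell (without replicate 2, 6 myeloid and 2 endothelial markers rose and no endothelial marker fell). Of 5 tested erythroid markers 4 rose in NTC livers (2 without sgBap1-CCl4 replicate 2) and none was called in sgBap1 livers. Over all tested genes, 27.4% rose and 26.6% fell in NTC livers, and 29% rose and 28% fell in sgBap1 livers. The endothelial, cholangiocyte and lymphocyte counts in NTC livers are not set apart from these shares. Their median log2 changes there were 0.04, 0.76 and 0.71. The summed level of the 6 proliferation markers was 33.0 to 53.1 CPM in the vehicle livers and 246 to 404 CPM in the CCl4 livers. Skeletal muscle markers, whose tissue also uses Pkm, Aldoa and Hk2, summed to at most 0.205 CPM in any liver. Adipocyte markers summed to 21.96 to 30.5 CPM in the other 5 CCl4 livers and 383 CPM in sgBap1-CCl4 replicate 2. That library was also the highest of all livers for Hk1, Hk2, Pfkl, Pfkp, Aldoa, Pkm and Ldhb. Hk3 and Ldha were highest in other livers, and Pklr was lowest in that library. Its stellate and fibroblast markers summed to 864 CPM, against at most 477 CPM in any other liver. The part of these cell types in the changes above was not tested.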

How the data were processed

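Bulk RNA-seq of 10 liver samples (right lobe) from female mice was analysed. The authors made stranded mRNA libraries, aligned paired reads of 50 bases to GRCm38 with STAR 2.7.6a and quantified them with Salmon 1.4.0, and the deposited table holds estimated counts (expected counts) per gene symbol without normalization. Of the values, 9.22% were not whole, and all were rounded. In R 4.3.3, edgeR 4.0.16 kept 17015 of 55291 genes (filterByExpr by group), scaled libraries by TMM and fitted 1 quasi-likelihood model of the 4 groups. The 4 pairwise contrasts and the interaction were tested two-sided with Benjamini-Hochberg adjustment over all tested genes and a threshold of 0.05, which is what called, rose and fell refer to.

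Isoenzyme ratios were log2 ratios of counts within a liver with 0.5 added, and shares were counts per kilobase of merged exons. Exon lengths, positions and shared 50-base stretches came from GENCODE vM21 (the authors counted on vM25), promoters from RefSeq. Named genes were the 9 members, their measured partners, Bap1, from the other pathway lists those called between genotypes and the 3 largest changes called with CCl4 in NTC livers, the 3 genes most like each member, and markers beside a result they move with. Pdk4 was added outside this rule, beside the other kinases of pyruvate dehydrogenase. The members and lists were chosen with earlier results of these data known. Neither labels nor methods name a batch, and no batch was tested. Alternatives were DESeq2 1.42.0 (Wald test and its size factors), library size alone, other count filters, the replicate number as a block, only the 2 groups compared, and each liver left out. Those added after seeing the data were the quasi-likelihood method of edgeR 3 and the list counts without sgBap1-CCl4 replicate 2, by DESeq2 and by library size alone. On simulated counts for the comparison of NTC-CCl4 with NTC-Veh (16617 genes), only 98 tested genes were changed 2-fold and 99 were changed 4-fold. Of these, 62.2% and 80.8% were recovered. For sgBap1-Veh against NTC-Veh (16574 genes) the values were 56.6% of 99 and 82.7% of 98 changed genes. Some isoenzyme partners, and the ratios and shares that need them, are not reported here. The spatial data and histology of the study were not analysed here.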

Additional observations from a re-analysis of the deposited data

How the results depend on the processing

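Over the 5 comparisons, 778 of 801 alternative values of the 9 genes kept their direction and their side of the threshold. In the comparisons of CCl4 with vehicle, 319 of 324 did, 4 values of Pfkl in NTC livers passed (by library size alone 0.77, adjusted p = 0.00176, and with the replicate block 0.33, adjusted p = 0.0373, beside the fits without a liver given above), and Hk3 in sgBap1 livers lost its call without sgBap1-Veh replicate 2. The number of the 9 called was 8 to 9 in both with a liver left out, 0 to 1 for sgBap1-Veh against NTC-Veh (1, Hk3, by DESeq2), and 0 for sgBap1-CCl4 against NTC-CCl4 and the interaction, where DESeq2 called 2. With the replicate number as a block, 0, 9, 9, 0 and 0 of the 9 and 1, 8411, 8898, 24 and 0 of all genes were called in the order vehicle genotype, NTC with CCl4, sgBap1 with CCl4, CCl4 genotype and interaction. Same-numbered livers did not deviate together (correlations from -0.149 to 0.102). This cannot show whether they were matched, and the labels do not say. DESeq2 called 548, 8974, 9469, 480 and 411 of all genes, and the fits of only the 2 groups compared called 27, 9067, 8777 and 28. By library size alone these numbers were 32, 10561, 11002, 62 and 2, and with no filter beyond 1 count 103, 8605, 9206, 94 and 34. With 1 liver left out they ran from 0 to 150, 7212 to 9374, 7729 to 9599, 1 to 71 and 0 to 7. Of the 6 ratio tests 0 to 3 passed with a liver left out. Signs reversed only in differences that had not passed: by library size alone Ldhb in NTC livers with CCl4 (0.11), Pfkm in sgBap1 livers with CCl4 (0.15) and Hk3 between genotypes under CCl4 (0.0023), and with the block Hk3 there (0.0104). With a liver left out, values reversed in at least 1 fit for Hk3 (-0.13 to 0.20), Hk1 (-0.0571 to 0.19), Hk2 (-0.10 to 0.60) and Pfkp (-0.0717 to 0.35) between genotypes under CCl4, Pfkl under vehicle (-0.24 to 0.0823), Ldhb in sgBap1 livers with CCl4 (-0.016 to 2.18), Aldoa (-0.0744 to 0.14) and Pfkp (-0.47 to 0.0227) in the interaction, and the genotype effect on Ldha/Ldhb (-0.77 to 0.0109). The Pklr share was 95.3% (longest transcript) and 96.0% (no length) in NTC-Veh, 32.9% and 36.8% in NTC-CCl4, and Spearman's rho kept 4 of 27 nearest genes. The cause of these differences was not tested. Groups of 2 and 3 limit what could be called. In simulated counts for NTC-CCl4 against NTC-Veh, 62.2% of the 98 genes changed 2-fold were recovered. Few genes were changed there, whereas 53.9% of all genes were called in the data. Recovery in the data can therefore differ from this share.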

Other observations

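Slc2a4, which encodes the insulin-responsive glucose transporter GLUT4 of muscle and fat, was chosen after its values were seen. It was at 0.735 and 1.16 CPM in NTC-Veh and at 7.70 and 7.34 CPM in sgBap1-Veh. The CCl4 livers were lower, at 0.107, 0.0751 and 0.0781 CPM in NTC-CCl4 and at 0.136 and 0.128 CPM in sgBap1-CCl4 replicates 1 and 3. The exception was sgBap1-CCl4 replicate 2, at 7.21 CPM, which also held Adipoq at 36.4 CPM, Plin1 at 34.5 CPM and Fabp4, a fatty acid carrier of adipocytes and macrophages, at 256 CPM, against 4.88 to 15.8 CPM of Fabp4 in the other 9 livers. In both sgBap1-Veh livers Adipoq and Plin1 were at 0, and the skeletal muscle markers summed to at most 0.0807 CPM. The log2 difference of Slc2a4 between sgBap1-Veh and NTC-Veh was 2.98 (SE 1.54, edgeR adjusted p = 0.503) with all livers, 2.99 (adjusted p = 0.00298) without sgBap1-CCl4 replicate 2 and 2.96 (adjusted p = 0.0249) in a fit of only the vehicle livers. DESeq2 gave 2.99 with no adjusted p, and the other edgeR fits gave 2.69 to 3.35 (adjusted p from 0.408 to 0.816).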
